A study of Mus musculus with 2 samples.

Results

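The BCL2 family of apoptosis regulators was examined in embryonic mouse ureters after culture with and without NOGGIN. The genes are Pmaip1, Bbc3, Bid, Bcl2l11, Bmf, Bax, Bak1, Bcl2, Bcl2l1 and Mcl1. Every non-control probe that the scanner files assign to one of these 10 genes was taken, which gave 13 of the 39429 probes and 10 of the 22311 genes or unnamed features measured. The family was chosen because Pmaip1 differed on both arrays, so the comparison below describes its values and gives no test for its genes.

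The 2 groups were NOGGIN-treated ureters and control ureters, both from wild-type NMRI embryos of mixed sex dissected at E13.75 (days after conception) and kept for 18 h on transwell membranes. The treated cultures had 10 µg/ml NOGGIN in the medium and the control cultures had none. Each of 2 two-colour arrays held 1 NOGGIN sample and 1 control sample, labelled from 200 ng of total RNA, with a dye swap: NOGGIN was green on array 1 and red on array 2. How many ureters went into each RNA sample is not stated in the labels. Nor do they state whether the 2 pairs are separate cultures or litters, so the spread given here may be technical.

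The direction of every ratio was unsettled. By the dye labels Id1, a gene induced by bone morphogenetic protein (BMP) signalling, had log2 ratios of 2.21 on array 1 and 2.08 on array 2, higher in the NOGGIN-labelled channel, although NOGGIN is a BMP antagonist; Id2 had 2.41 and 2.77 and Id3 had 1.43 and 1.47. The authors' deposited table, whose titles set NOGGIN against control, has the opposite sign, with correlations across probes of -0.906 on array 1 and -0.952 on array 2 against the ratios used here. Signed values here follow the dye labels (NOGGIN-labelled over control-labelled channel). Were the labels reversed, each sign would flip with its size kept.

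BCL2 proteins decide whether the outer mitochondrial membrane is opened during apoptosis. The effectors BAX and BAK form the pores that release cytochrome c, anti-apoptotic proteins such as BCL2, BCL-XL and MCL1 hold them in check, and BH3-only proteins bind the anti-apoptotic proteins or the effectors and so favour pore formation. NOGGIN binds BMP ligands and keeps them from their receptors. In the developing ureter BMP4 is made by the mesenchyme around the epithelium and is required for the formation of the smooth muscle coat and the urothelium.

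Of the 10 genes, Pmaip1 stood apart. It was 2.29-fold lower in the NOGGIN-labelled channel on array 1 and 3.20-fold lower on array 2, and it alone of the family differed 1.5-fold or more with one sign on both arrays (the fold rule below). Over all 22311 features 2.19% passed that rule, 278 as lower and 210 (0.941%) as higher; the family was picked from this contrast, so nothing is read from its count of 1 in 10. The BH3-only genes Bcl2l11 and Bmf had higher NOGGIN-labelled levels on both arrays, by less than 1.5-fold on at least 1 of them. The effector genes Bax and Bak1 had opposite signs on the 2 arrays. The median log2 ratio of the 10 genes was -0.0057, beside -0.0060 over all features.

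All 13 probes were well above background in both channels on both arrays, and no spot was saturated. Each probe is printed 4 times on an array, and 99 of the family's spots entered the analysis after 5 flagged as outliers were left out. Levels below are normalized log2 intensities of single channels, and a level of one probe says nothing against that of another. A log2 ratio is the difference of the 2 channels on one array. RNA was taken from whole ureters, so fewer cells of a type and less RNA per cell cannot be told apart.

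Pmaip1 encodes NOXA, a BH3-only protein that binds mainly MCL1 and promotes its breakdown, and whose gene is a classical p53 target. Its probe (chromosome 18, 66625088 to 66625147, mouse build mm9, the coordinates of the files throughout) had levels of 10.13 and 9.88 in the NOGGIN-labelled channels on arrays 1 and 2, against 11.32 and 11.56 in the control-labelled channels. Both NOGGIN levels lay below both control levels. The log2 ratios were -1.19 and -1.68, with a mean of -1.44 ± 0.34 (SD, n = 2), which is 2.70-fold lower.

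The single spots of Pmaip1 gave the same picture on each array. On array 1 they ran from -1.35 to -1.03 and on array 2 from -1.71 to -1.63, so all 8 lay below 0. Before any correction, the median spot signal of Pmaip1 on array 1 was 1378 with the NOGGIN label and 1676 with the control label. On array 2 it was 773 with the NOGGIN label and 4233 with the control label. The green channel held NOGGIN on array 1 and control on array 2, and was brighter than red by a median factor of 1.32 on array 1 and 1.15 on array 2. The raw signals of Pmaip1 had the sign of the normalized ratios with either dye. They and the spots are the values that Pmaip1 was picked on, so they are no separate evidence. Spots of an array are repeats of the same hybridization. The authors' deposited table gives its probe signed fold values of 2.69 and 2.89, of similar size and opposite sign.

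Across all 22311 features, 55 (0.247%) had a mean log2 ratio as low as that of Pmaip1 or lower, and 0.529% had one as large in size. Nothing is read from this rank, since Pmaip1 was picked from this contrast. Of the other 9 genes Bmf came nearest, with 6.73% of features as large in size, followed by Bcl2l11 with 7.33%. The share was 25.8% or more for each of the remaining 7 genes.

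**Figure D1:**
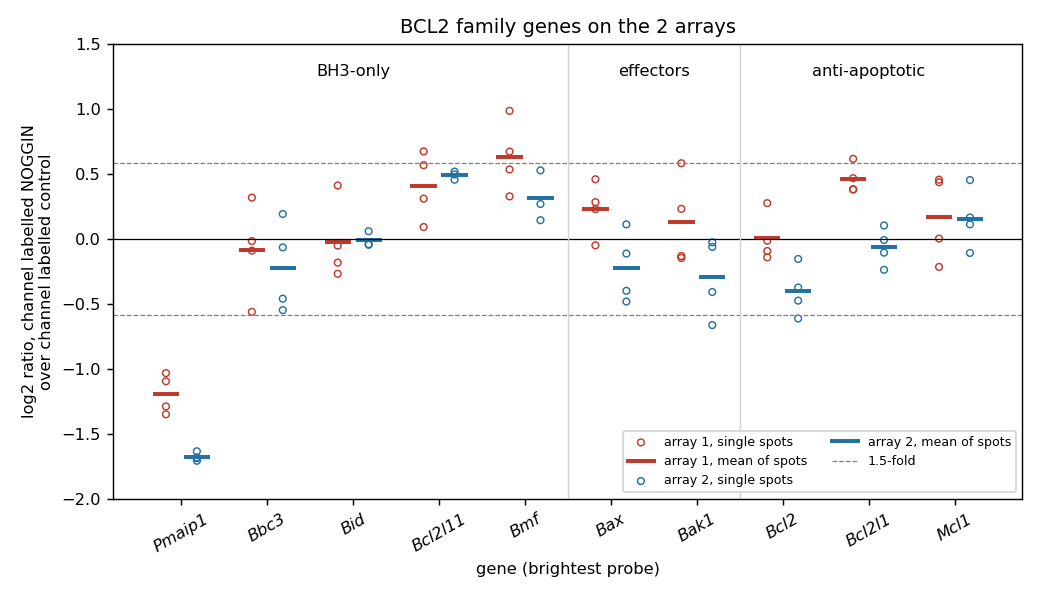
Log2 ratio of the NOGGIN-labelled channel over the control-labelled channel (vertical axis) for the brightest probe of each of the 10 genes, grouped by role. Open circles are single spots, bars are the mean of the spots of one array, red is array 1, blue is array 2, and dashed lines mark 1.5-fold. All 8 spots of Pmaip1 lie between -1.71 and -1.03, all 7 spots of Bcl2l11 and all 7 of Bmf lie above 0 (up to 0.67 and 0.99), and the spots of the other 7 genes lie on both sides of 0.

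Bcl2l11 encodes BIM, a BH3-only protein that binds all anti-apoptotic family members and is a transcriptional target of FOXO factors. Its brighter probe (chromosome 2, 127972893 to 127983988, a span of 11096 bases, so the matched sequence is interrupted in the genome) had levels of 10.67 and 10.35 in the NOGGIN-labelled channels, against 10.26 and 9.86 in the control-labelled channels. Both NOGGIN levels were above both control levels, although array 1 in control was close to array 2 in NOGGIN. The log2 ratios were 0.41 and 0.49, with a mean of 0.45 ± 0.06 (SD, n = 2), and all 7 measured spots were above 0. The authors' deposited table gives the probe -1.22 and -1.67.

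A second Bcl2l11 probe, 18157 bases upstream on the same chromosome (127954736 to 127955417, a span of 682 bases), was dim. Its median raw signals were 145 with the NOGGIN label and 118 with the control label on array 1, and 144 and 143 in the same order on array 2. It had the same sign and a smaller size, with log2 ratios of 0.06 and 0.12 and a mean of 0.09 ± 0.04 (SD, n = 2). Which transcripts each of the 2 probes reads was not analysed here.

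Bmf encodes a BH3-only protein that is held at the cytoskeleton through dynein light chain until it is released. Its probe (chromosome 2, 118354496 to 118354555) had levels of 15.55 and 15.28 in the NOGGIN-labelled channels, against 14.92 and 14.97 in the control-labelled channels, with no overlap. It was 1.55-fold higher on array 1 and 1.24-fold higher on array 2, so it passed 1.5-fold on array 1 only. The mean log2 ratio was 0.47 ± 0.22 (SD, n = 2), and all 7 measured spots were above 0. The authors' deposited table gives it -1.58 and -1.18.

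Bbc3 encodes PUMA, another p53-induced BH3-only protein, which binds all anti-apoptotic members. Its probe (chromosome 7, 16903403 to 16903462) had levels of 12.75 and 12.82 in the NOGGIN-labelled channels, against 12.83 and 13.04 in the control-labelled channels. The NOGGIN levels were the lower ones, but that of array 2 was nearly equal to the control level of array 1. The log2 ratios of -0.088 and -0.22 gave a mean of -0.15 ± 0.09 (SD, n = 2), and single spots lay on both sides of 0 on each array. Thus Bbc3 had the sign of Pmaip1 at a small part of its size.

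Bid encodes a BH3-only protein that caspase-8 cleaves, which links death receptors to mitochondria. Its probe (chromosome 6, 120843464 to 120843523) had levels of 11.73 and 11.91 in the NOGGIN-labelled channels, against 11.75 and 11.91 in the control-labelled channels. With log2 ratios of -0.023 and -0.0092 it was the gene of the family with the smallest difference on array 2.

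Promoter sequences are shown for 3 BH3-only genes whose ratios had the same sign on both arrays, 2 higher and 1 lower in the NOGGIN-labelled channel. Bid, also lower on both arrays, is not shown. The windows are the 250 bases before the most upstream annotated start of each gene, read along the gene's strand from RefSeq (GRCm38.p6, a later build than that of the probe coordinates, so the positions cannot be set against each other). Capitals mark GGCGCC, the GC-rich element bound by BMP-activated SMAD proteins, and TGTTTAC or its reverse complement GTAAACA, the FOXO element. The window of Bbc3 is chr7:16309333-16309582 on the plus strand, that of Bcl2l11 is chr2:128125788-128126037 on the plus strand, and that of Bmf is chr2:118549687-118549936 on the minus strand.
Bbc3: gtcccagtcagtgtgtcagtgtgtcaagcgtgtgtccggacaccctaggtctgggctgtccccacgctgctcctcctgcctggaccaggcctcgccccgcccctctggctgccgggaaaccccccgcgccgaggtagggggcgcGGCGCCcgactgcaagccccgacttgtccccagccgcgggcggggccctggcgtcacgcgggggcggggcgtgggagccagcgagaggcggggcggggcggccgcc
Bcl2l11: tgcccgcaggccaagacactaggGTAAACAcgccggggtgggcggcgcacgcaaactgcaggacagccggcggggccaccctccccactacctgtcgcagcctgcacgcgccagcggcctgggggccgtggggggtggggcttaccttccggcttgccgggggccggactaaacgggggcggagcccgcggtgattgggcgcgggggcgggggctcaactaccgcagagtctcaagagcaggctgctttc
Bmf: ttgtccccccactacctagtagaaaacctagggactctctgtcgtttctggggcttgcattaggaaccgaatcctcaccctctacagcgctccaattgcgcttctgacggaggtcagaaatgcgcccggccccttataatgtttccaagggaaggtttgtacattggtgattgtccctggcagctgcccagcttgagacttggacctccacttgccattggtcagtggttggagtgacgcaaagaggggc
The Bbc3 window holds 1 GGCGCC, the Bcl2l11 window holds 1 GTAAACA and the Bmf window holds none of these letters. The window of Bid, not shown, holds none either. Other starts of a gene can differ. The window of the second Bcl2l11 start holds 2 GGCGCC, and that of the second Bbc3 start holds 1 GGCGCC and 1 TGTTTAC.

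RefSeq promoters were found for 9 of the 10 genes, all but Pmaip1, with 16 annotated starts among them. Searched on both strands in the 250 bases before each start, GGCGCC occurred in 4 of the 16 windows, in Bbc3, Bcl2 and Bcl2l11, and in 9.59% of all 32851 RefSeq promoter windows of that length. The FOXO element occurred in 2 windows, 1 each of Bbc3 and Bcl2l11, and in 3.17% of all windows. The SMAD4-binding element GTCTG or CAGAC occurred in 6 windows and in 42.2% of all windows. The E-box CACGTG occurred in 2 windows, of Bax and Bbc3, and in 6.02% of all windows, and the cyclic AMP response element TGACGTCA in 0 of the 16 and in 1.55% of all windows. The letters of none of these 5 motifs contain those of another, and a match describes the letters only. GC content was 76.4% in the Bbc3 window, 72% in the Bcl2l11 window and 54% in the Bmf window, beside a median of 52.4% over all windows, and a GC-rich motif occurs more often in GC-rich sequence.

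The 2 effector genes had opposite signs on the 2 arrays. Bax (chromosome 7, 52717122 to 52717181) had levels of 13.01 and 12.99 in the NOGGIN-labelled channels, against 12.78 and 13.21 in the control-labelled channels. Its log2 ratios of 0.23 and -0.22 gave a mean of 0.0047 ± 0.32 (SD, n = 2). Bak1 (chromosome 17, 27156807 to 27156866) had levels of 13.57 and 13.39 in the NOGGIN-labelled channels, against 13.44 and 13.68 in the control-labelled channels, and log2 ratios of 0.13 and -0.29. For both genes the NOGGIN levels lay between the control levels or overlapped them, and the channel read in green was the brighter one on both arrays. Over all features, 56.3% had opposite signs on the 2 arrays. In their order on the array, the Bak1 spots fell from 0.58 to -0.15 on array 1 and rose from -0.66 to -0.03 on array 2. First spots of Bax, Bbc3 and both Mcl1 probes were above 0 on array 1 and below 0 on array 2, and last spots the reverse. All spots of Pmaip1 and Bmf kept their sign. The cause of this spot trend was not tested, and the signs of small ratios may depend on it.

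Of the 3 anti-apoptotic genes, Mcl1 encodes a short-lived protein that is the main partner of NOXA. Its brighter probe (chromosome 3, 95466855 to 95466914) had levels of 14.77 and 14.75 in the NOGGIN-labelled channels, against 14.60 and 14.60 in the control-labelled channels. The groups did not overlap, and the difference was small, with log2 ratios of 0.17 and 0.16 and a mean of 0.16 ± 0.01 (SD, n = 2). Single spots were on both sides of 0, with 3 of 4 above 0 on each array. A second Mcl1 probe 1312 bases away (95465543 to 95465602) had -0.22 and 0.18, so the 2 probes of Mcl1 disagreed on array 1.

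Bcl2l1 encodes BCL-XL and, by alternative splicing, a shorter pro-apoptotic form. Its brighter probe (chromosome 2, 152606404 to 152606463) had levels of 14.33 and 14.14 in the NOGGIN-labelled channels, against 13.87 and 14.20 in the control-labelled channels, and log2 ratios of 0.46 and -0.06. A dimmer probe 48781 bases away (152655185 to 152655244) had the reverse order of signs, -0.09 and 0.38. The 2 probes thus had opposite signs on each array, with means of 0.20 ± 0.37 and 0.15 ± 0.34 (SD, n = 2). In the authors' fold values, turned in sign, the brighter probe was positive on both arrays (1.20 and 1.13). Which spliced form each probe reads was not analysed here.

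Bcl2, the founding anti-apoptotic member, was read by 1 probe (chromosome 1, 108608970 to 108609029). Its levels were 10.91 and 10.47 in the NOGGIN-labelled channels, against 10.90 and 10.88 in the control-labelled channels. The log2 ratios were 0.0063 and -0.40, with a mean of -0.20 ± 0.29 (SD, n = 2). On array 2 all 4 spots were below 0, whereas on array 1 they lay on both sides.

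**Figure D2:**
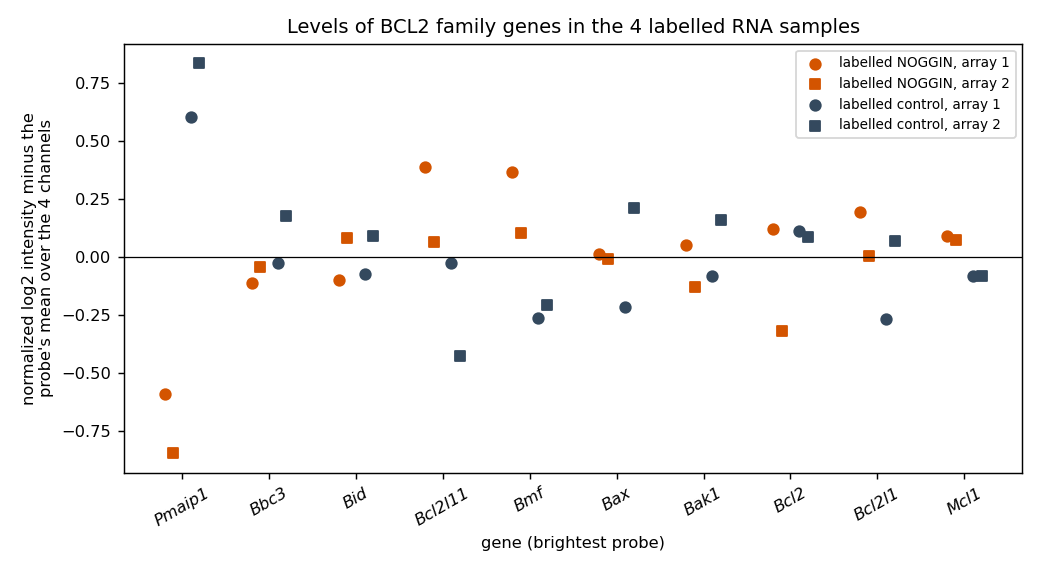
Normalized log2 intensity of each channel minus the probe's mean over the 4 channels (vertical axis), for the brightest probe of each gene. Orange points are NOGGIN-labelled channels, dark points are control-labelled channels, circles are array 1 and squares are array 2. The 2 groups are clear of each other in Pmaip1 (NOGGIN lower) and Bmf (NOGGIN higher), and by smaller gaps in Bcl2l11, Mcl1 and Bbc3.

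In all, the NOGGIN-labelled channels and control did not overlap in 5 of the 10 genes: 3 were higher in NOGGIN (Bcl2l11, Bmf and Mcl1) and 2 were lower (Pmaip1 and Bbc3). Over all features 14.3% were higher and 17.9% lower without overlap. By sign alone, 3 of the 10 genes were higher on both arrays, 3 lower on both and 4 split, beside 20.4%, 23.3% and 56.3% of all features. Nothing is read from these counts, since the family was picked from this contrast.

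Within the BH3-only genes the 5 members went different ways. Pmaip1, Bbc3 and Bid were lower in the NOGGIN-labelled channel on both arrays and Bcl2l11 and Bmf were higher, over a range of mean log2 ratios that ran from -1.44 to 0.47. The 2 effectors and 3 anti-apoptotic genes ran from -0.20 to 0.20. The direction on both arrays held for Pmaip1, Bcl2l11 and Bmf in each of 10 other ways of processing the arrays. The authors' values, among the 10, had their sign turned on both arrays beforehand, so they are no separate evidence of direction. Changes of flags, dim-probe filter and probe choice could not alter Pmaip1, which has 1 probe and no flagged spot. The direction of Bbc3 was lost with median centring, where array 1 gave 0.27 and array 2 -0.66. That of Mcl1 was lost with median centring (0.32 and -0.07) and with the mean of its 2 probes (-0.026 and 0.17). That of Bid was lost with median centring and on the scanner software's processed signals. Split signs depended on the setting too. Bcl2l1 was higher on both arrays in 3 of the 10 settings, and Bcl2 was lower on both in 3. Bax was lower on both in 1, the authors' values (-0.04 and -0.07), and Bak1 was split in all 10. Median centring leaves the dye trend in place and moved the median of all features to 0.20 on array 1 and -0.27 on array 2, against 0.02 and -0.05 with loess.

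**Figure D3:**
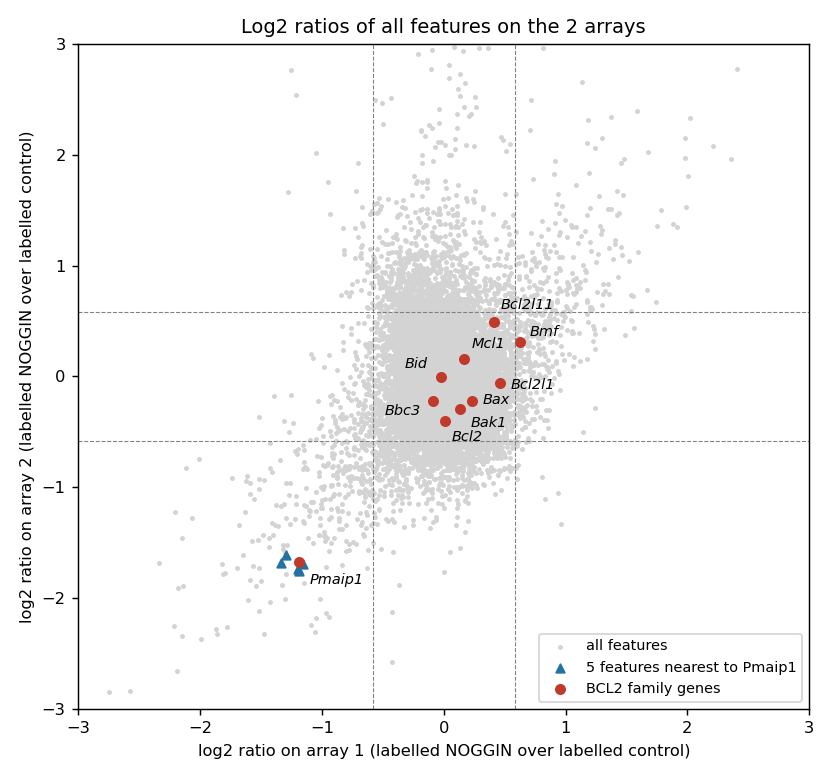
Log2 ratio on array 1 (horizontal axis) against array 2 (vertical axis) for all features (grey), the 10 genes (red) and the 5 named features nearest to Pmaip1 (blue triangles). Dashed lines mark 1.5-fold, and 28 features lie outside the axes. Pmaip1 sits in the lower left corner at -1.19 and -1.68, and the other 9 genes lie in the central cloud.

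The genes whose pair of ratios was nearest to that of Pmaip1 were taken by Euclidean distance over the 2 arrays, among 19246 named features outside the family. Crispld2, which encodes a secreted CAP-domain protein, had -1.15 and -1.69 (distance 0.0423). Edn1, the precursor of the vasoconstrictor peptide endothelin-1, had -1.19 and -1.74 (distance 0.0622). Rasd2, a RAS-related GTPase gene, had -1.19 and -1.76, C1qtnf7 had -1.30 and -1.61, and Ebf2, a transcription factor gene of mesenchymal and adipose cells, had -1.33 and -1.68. With 2 arrays this likeness is a closeness of 2 values.

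The wider apoptosis pathway was read through 97 genes listed by role, of which 92 were measured. By the fold rule 5 of these were higher and 0 lower, beside 0.941% of all features higher and 2.19% in either direction. In limma's moderated test 0 of the 92 passed an adjusted p of 0.05, as did 0 of all 22311 features (0%), and the lowest adjusted p of a listed gene was 0.289. At an unadjusted p under 0.05 there were 10 higher listed genes and 2 lower ones (Cdkn1a and Jun), beside 6.04% of all features in either direction. Of the 10 higher genes 8 were interferon response genes, which were uneven between the arrays, and the others were Bcl2l14 and Trp53inp1. With median centring in place of loess 7 interferon response genes passed the adjusted threshold. The median log2 ratio of the 92 genes was -0.0037.

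Among the other BCL2 family genes 12 of 15 were measured, with a median of 0.06. The fold rule took 1 gene as higher and 0 as lower. It was Bcl2l14, which encodes the family member BCL-G, with log2 ratios of 1.00 and 0.63 and a mean of 0.82 ± 0.26 (SD, n = 2; limma adjusted p = 0.289). Hrk, a BH3-only gene best known in neurons, had -0.29 and -0.32. The mitophagy receptors Bnip3l and Bcl2l13 had 0.33 and 0.31, and 0.29 and 0.37. The BH3-only gene Bad and the effector-like gene Bok split between the arrays, with 0.06 and -0.05 for Bad and 0.20 and -0.13 for Bok. The lowest mean in the family outside the 10 genes was -0.31. Nothing is read from the gap to Pmaip1, which was picked from this contrast.

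Of the p53 list, p53 and genes it induces, 16 of 16 were measured, with a median of 0.01, and 0 passed the fold rule in either direction. By sign 5 were higher on both arrays, 5 were lower and 6 split, beside 20.4%, 23.3% and 56.3% of all features. Cdkn1a, which encodes the cell cycle inhibitor p21, was nearest to the threshold, with -0.55 and -0.77 and a mean of -0.66 ± 0.16 (SD, n = 2; limma adjusted p = 0.380). Mdm2, the p53 ubiquitin ligase gene and a p53 target itself, had -0.03 and -0.02, Trp53inp1 had 0.30 and 0.61, and Trp53 had -0.25 and 0.60. Genes that p53 is known to induce lay on both sides of 0. Pmaip1 was the lowest of Pmaip1, Bbc3, Bax and the 16 listed genes. It was picked from this contrast, so nothing is read from its place among them. The part of p53 in these values was not tested.

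Other known regulators of BH3-only genes were read in the same way. Of 10 integrated stress response genes, whose factor ATF4 can induce Pmaip1, 6 were lower on both arrays, 1 was higher and 3 split. Over all features 23.3% were lower on both arrays, 20.4% higher and 56.3% split. The median of these 10 genes was -0.17, and 0 passed the fold rule. Atf4 had -0.17 and -0.35, Ddit3, which encodes CHOP, had 0.11 and 0.39, and Asns, an ATF4 target, had -0.13 and -1.02. Of 8 other transcription factor genes, 4 were lower on both arrays, 0 were higher and 4 split, with a median of -0.18 and 0 past the fold rule. Jun had -0.79 and -0.49 (limma adjusted p = 0.435), Foxo3 had -0.44 and -0.26, and Foxo1 had 0.25 and -0.20.

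None of the measured genes listed for the apoptosome and caspases, death receptors or MCL1 turnover passed the fold rule. Of 18 genes of the apoptosome, caspases and their inhibitors, 0 passed it, with a median of -0.03. By sign 6 were lower on both arrays, 1 was higher and 11 split, beside 23.3%, 20.4% and 56.3% of all features. Apaf1, the scaffold of the apoptosome, had -0.03 and -0.07. Of 10 death receptor genes 0 passed and the median was 0.06; the ligand gene Tnfsf10, which encodes TRAIL, had -0.26 on array 1 and 1.64 on array 2. Of 7 genes that control MCL1 turnover 5 were measured and 0 passed, with a median of -0.08. Expression of a caspase gene does not show whether the enzyme was active.

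**Figure D4:**
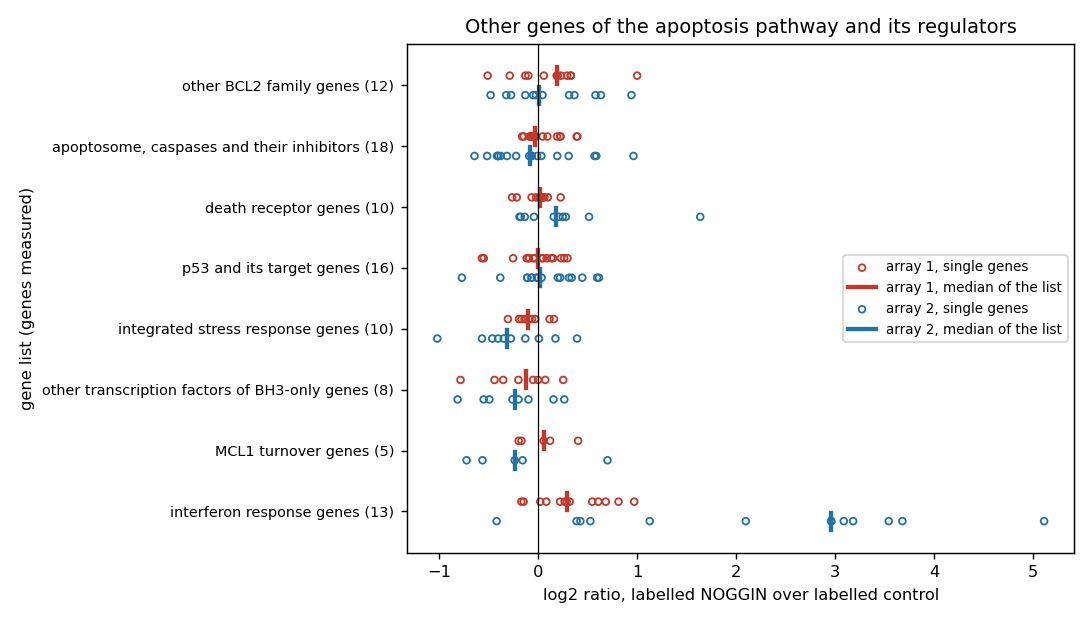
Log2 ratio of the NOGGIN-labelled channel over the control-labelled channel (horizontal axis) for the measured genes of 8 pathway lists, on array 1 (red) and array 2 (blue). Circles are genes and bars are list medians. The interferon response list has medians of 0.29 on array 1 and 2.96 on array 2, and the medians of the other 7 lists lie between -0.31 and 0.19.

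Interferon response genes, whose factors can induce Pmaip1 in virus-infected cells, were uneven between the arrays. By the fold rule 4 of 13 were higher and 0 lower, beside 0.941% of all features higher and 2.19% in either direction. The list median was 0.29 on array 1 and 2.96 on array 2. The 4 higher genes were Ifit1 with 0.61 and 5.11, Oasl2 with 0.68 and 3.68, Ifit3 with 0.97 and 3.18, and Rsad2 with 0.81 and 2.96. The summed linear level of the list was 35880 and 121100 in the NOGGIN-labelled channels on arrays 1 and 2, against 32860 and 45840 in the control-labelled channels. The sample labelled NOGGIN on array 2 thus had the highest summed level. The control of array 2 was also above both samples of array 1 in some of these genes, though not in all. In Isg15 it had a level of 12.31, against 9.31 (NOGGIN) and 8.76 (control) on array 1. In Rsad2 it had 10.12, against 10.18 in the NOGGIN-labelled channel of array 1. The ratio of Pmaip1, opposite in sign, was -1.19 on array 1 and -1.68 on array 2. The part of the interferon genes in it was not tested.

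Markers of the cell types of the ureter were read beside these values, as summed linear levels in arrays 1 and 2. Bright probes weigh most in such a sum, so it is no measure of the number of cells. Over all features 2.19% passed the fold rule, 0.941% as higher. For the labelled tissue, 10 of 10 urothelial and 9 of 9 mesenchymal and smooth muscle markers were measured above background. The urothelial sum was 152200 and 145900 in the NOGGIN-labelled channels, against 139100 and 150900 in the control-labelled channels, with a median log2 ratio of 0.03. The mesenchymal and smooth muscle sum was 321000 and 357000 in the NOGGIN-labelled channels, against 504900 and 450900 in the control-labelled channels, with no overlap; by the fold rule 2 of its 9 genes were higher (Myocd and Tbx18) and 2 lower (Tagln and Cnn1). Nephron and renal progenitor markers summed to 14700 and 14430 in the NOGGIN-labelled channels, against 20620 and 20190 in the control-labelled channels, with 6 of 7 measured and, by the fold rule, 2 lower (Lhx1 and Wt1) and 0 higher. Mean log2 ratios were -1.12 for Lhx1 and -0.90 for Wt1, but -0.25 for Pax8, -0.17 for Six2, -0.16 for Cited1 and -0.08 for Nphs1. Macrophage markers (7 of 8 measured) summed to 11790 and 18680 in the NOGGIN-labelled channels, against 12450 and 16440 in the control-labelled channels. Their median log2 ratio was -0.24, with 4 genes lower on both arrays, 1 higher and 2 split, beside 23.3%, 20.4% and 56.3% of all features. Adgre1 (1.27) and Lyz2 (1.23) were higher on array 2, where the sum was higher too. The other measured markers were lower there: Cx3cr1 (-1.27), Mrc1 (-0.63), Csf1r (-0.45), Cd68 (-0.38) and C1qa (-0.19). Endothelial, red blood cell and nerve markers had medians of 0.12, 0.05 and 0.07. The combined mesenchymal and smooth muscle sum and the nephron sum shared the sign of Pmaip1. The combined sum differed more on array 1 and the nephron sum about equally on each array. Pmaip1 had -1.19 and -1.68 with loess, and -1.41 and -1.52 on the scanner software's processed signals. Of the 9 genes in the combined sum, 6 had the sign of Pmaip1. The opposite sign was seen in Myocd (1.17 and 0.94), Tbx18 (0.88 and 0.65) and Tcf21 (0.60 and 0.22). The part of these sums in the value of Pmaip1 was not tested.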

How the data were processed

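Total RNA was read on 2 two-colour Agilent arrays of a custom design, which share a slide and a scan; an array counts as 1 replicate. The authors deposited scanner files that, per the file headers, hold raw spot intensity values, processed signals (background-subtracted and dye-normalized by the software), their log10 red over green ratio, and flags of 0 or 1 for outliers, saturation and signal above background. The submitters' processing notes name Agilent Feature Extraction 10.7.3.1. A separate table deposited by the authors holds a score per probe that proved to be a signed linear fold value, with a median of 1 on each array and an unstated normalization. It correlated negatively with the ratios computed here on both arrays, so it was used with its sign turned.

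Background was corrected on the mean signals by normexp (offset 50), followed by loess within each array, in which control spots had weight 0, with limma 3.58.1 under R 4.3.3. Control spots and outlier spots (3.36% and 3.09%) were dropped, and a probe's 4 spots were averaged. Probes stayed in when most spots exceeded background clearly in 1 or both channels of each array, which left 29649; a gene was represented by its brightest such probe. The share of probes well above background with the NOGGIN label and the control label was 76.9% and 65.3% on array 1, and 66.4% and 76.4% on array 2. Single-channel levels were taken after Aquantile normalization between arrays. Gene names were updated through RefSeq accessions, which matched 28328 probes (71.8%). The 2 ratios were fitted by lmFit and eBayes, with 1 residual and 4.35 prior degrees of freedom and two-sided p-values adjusted by Benjamini-Hochberg over the 22311 features. The ratios of the 2 arrays had a correlation of 0.179 across features, which are not independent replicates. The precision is limited by the number of arrays. Alternatives changed the background correction, normalization, spot signal, flags, filter, averaging, probe choice, variance model and thresholds, or used the authors' values or 1 array.

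The members, gene lists and named genes were chosen with earlier results of these data known. The rule for names takes all members, up to 2 genes of each list past the fold rule with the largest mean, the 5 features nearest to Pmaip1, and Id1, Id2 and Id3. Other pathway and marker genes, Ifit3 and Rsad2 among them, were named after their values were seen. No probe carried the names Bcl2a1a, Bcl2a1b or March5, and Bcl2l10 and Trim17 did not pass the filter. Figures were drawn with matplotlib 3.10.9.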

Additional observations from a re-analysis of the deposited data

How the results depend on the processing

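The mean log2 ratio of Pmaip1 ran from -1.68 to -1.19 over 12 alternatives, both ends being single arrays, and it was past the 1.5-fold rule in each. Changes of flags, dim-probe filter and probe choice left its value as it was, and the authors' values were used with their sign turned. Pmaip1 was picked for differing on both arrays, so passing the 1.5-fold rule on a single array is no test of it. The count of the 10 genes past that rule, 1 as reported, was 2 at the lower of 2 other fold thresholds (with Bcl2l11) and ran from 1 to 2 when an array was left out (with Bmf on array 1 alone). The count of 5 pathway genes became 8 on the scanner software's processed signals and ran from 6 to 22 when an array was left out, the 22 on array 2 alone. The pathway count past an adjusted p of 0.05, 0 as reported, was 7 with median centring and 0 in the other settings tried. Over all features the adjusted count, also 0 as reported (1348 at an unadjusted p under 0.05), was 141 with trend and robust variance, 114 under median centring, 100 with both channels above background, 35 without background correction and 22 with outlier spots kept; on processed signals 852 features passed the fold rule, against 488 as reported. The causes were not tested. Of 120 member values under alternatives, 8 turned sign, in Bax, Bak1, Bcl2 and Bcl2l1, and 12 moved by more than the SD between arrays without turning, in Bcl2l11 (0.27 to 0.53), Mcl1 (0.07 to 0.18) and Bid (-0.14 to -0.0092). A single array gives no limma test. The alternatives of the pathway fold count other than background, normalization and single arrays were chosen after seeing the data. Dim signal limits the second Bcl2l11 probe. No paired analysis was possible beyond the reported fit, because its ratios already pair the 2 samples of each array.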
